A study of Mus musculus with 16 samples.

Results

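The core genes of the circadian clock were followed in a liver RNA-seq series. The part is the set of table entries whose gene name is Clock, Per1, Per2, Per3, Cry1, Cry2, Nr1d1, Nr1d2, Dbp or Ciart, a list fixed by name. It holds 10 of the 41079 genes counted, and all 10 passed the filter on low counts, as did 16742 genes in all.

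The 16 livers came from C57BL/6J mice aged 20 to 22 months, with 4 male CRE-, 4 male LKO, 4 female CRE- and 4 female LKO animals. Every animal, controls included, carried the Gcgr gene (glucagon receptor) with LoxP sites around its later exons. LKO animals also carried Cre recombinase under the Albumin promoter, which acts in hepatocytes, so that the receptor was deleted lifelong, and CRE- animals lacked Cre. Recombination in other liver cells was not examined here. Mice were housed in a light and dark cycle with chow freely available, and livers were frozen after CO2 anaesthesia and cervical dislocation. The time of dissection is not given in the sources used here, which is a limit on every value below. Total counts per liver ran from 33268424 to 56488920. Their medians were 44288170 in male CRE-, 38475729.5 in male LKO, 46840916 in female CRE- and 37348750.5 in female LKO livers.

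In the circadian clock, Clock and its partner Bmal1 (or Npas2) form an activator that binds E-boxes, and the genes it turns on include its own repressors Per and Cry. Nr1d1 and Nr1d2 repress Bmal1, and Dbp, Tef and Hlf drive output genes through D-boxes that Nfil3 also binds. In mouse liver Bmal1 and Npas2 are known to peak opposite to Dbp, Per3 and Nr1d1, and feeding time is known to set the phase.

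The deleted gene was examined first. Gcgr stood at 190, 193, 127 and 190 CPM (counts scaled to library size) in male CRE- livers 1 to 4 and at 117, 136, 130 and 160 CPM in male LKO livers 1 to 4. It stood at 162, 208, 201 and 180 CPM in female CRE- livers and at 48.8, 132, 119 and 93.6 CPM in female LKO livers. The female groups did not overlap, whereas the library labelled male CRE- 3 lay among the male LKO values, so Gcgr did not separate the male labels. The count covers all exons, those outside the deleted stretch included. The authors report reduced liver Gcgr transcript levels in both sexes at this age, from a separate assay that was not repeated here. Gcgr fell in female LKO livers (log2 fold change −0.93, SE 0.25, n = 4 per group, adjusted p = 0.0443 by the quasi-likelihood test of edgeR, with Benjamini-Hochberg adjustment over the genes tested). That call sat at the threshold, and 13 of the 16 fits that left out 1 library gave an adjusted p above 0.05. It was kept in 4 of 9 other alternatives, with log2 fold changes from −0.97 to −0.61. In males the log2 fold change was −0.37 (SE 0.24, adjusted p = 0.671 by edgeR). The difference between the sexes was −0.57 (SE 0.35, adjusted p = 0.412 by edgeR).

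Livers stood apart within groups by their clock genes. Bmal1, the partner of Clock, stood at 2.21, 1.003, 1.72 and 1.80 CPM in male CRE- livers 1 to 4 and at 1.44, 1.02, 21.2 and 1.78 CPM in male LKO livers 1 to 4. In female CRE- livers it stood at 19.9, 28.8, 2.23 and 5.56 CPM, and in female LKO livers at 17.4, 1.84, 3.62 and 25.8 CPM. Thus 5 livers (male LKO 3, female CRE- 1 and 2, female LKO 1 and 4) lay at 17.4 to 28.8 CPM and the other 11 at 1.003 to 5.56 CPM. The widest gap between neighbouring livers, 1.64 on the log2 scale, lay between these sets, and the next widest was 0.69. This split was seen in the data and is a description, not a grouping of the study. No male CRE- liver was in the higher set, against 1 of 4 male LKO, 2 of 4 female CRE- and 2 of 4 female LKO livers, so each comparison below was also made without the 5.

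Dbp, the output activator (chr7:45354658-45359579, plus strand, GRCm39), had the widest range of the members. It stood at 195, 179, 116 and 201 CPM in male CRE- livers 1 to 4 and at 155, 246, 12.2 and 212 CPM in male LKO livers. In female CRE- livers it stood at 13.2, 2.74, 179 and 107 CPM, and in female LKO livers at 5.59, 216, 124 and 4.86 CPM. The 5 livers with high Bmal1 held the 5 lowest Dbp values, 2.74 to 13.2 CPM against 107 to 246 CPM in the other 11. The LKO and CRE- groups overlapped in both sexes, and the highest Dbp value was 89.7 times the lowest.

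Per3 (chr4:151081475-151129167, minus strand), a repressor, and Ciart (chr3:95785812-95790012, minus strand), which represses Clock and Bmal1, followed the same split. The 5 livers stood at 2.90 to 8.47 CPM for Per3 against 12.3 to 74.8 CPM elsewhere, and at 0.311 to 1.04 CPM for Ciart against 1.15 to 17.2 CPM elsewhere. So 3 of 10 members did not overlap between the sets, against 54 of 16742 genes (0.323%), and the other 7 members overlapped. That share is a description, since the sets were drawn from Bmal1 in these data. Nr1d1, the repressor of Bmal1, stood at 135 CPM in male LKO 3 and at 23.7 CPM in female LKO 4, both livers with high Bmal1. Its values in the other 3 such livers were 85.4 and 60.2 CPM in female CRE- 1 and 2 and 42.2 CPM in female LKO 1, while male CRE- 2, with the lowest Bmal1, stood at 55.6 CPM. The livers of the higher set were therefore unlike each other in Nr1d1.

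**Figure D1:**
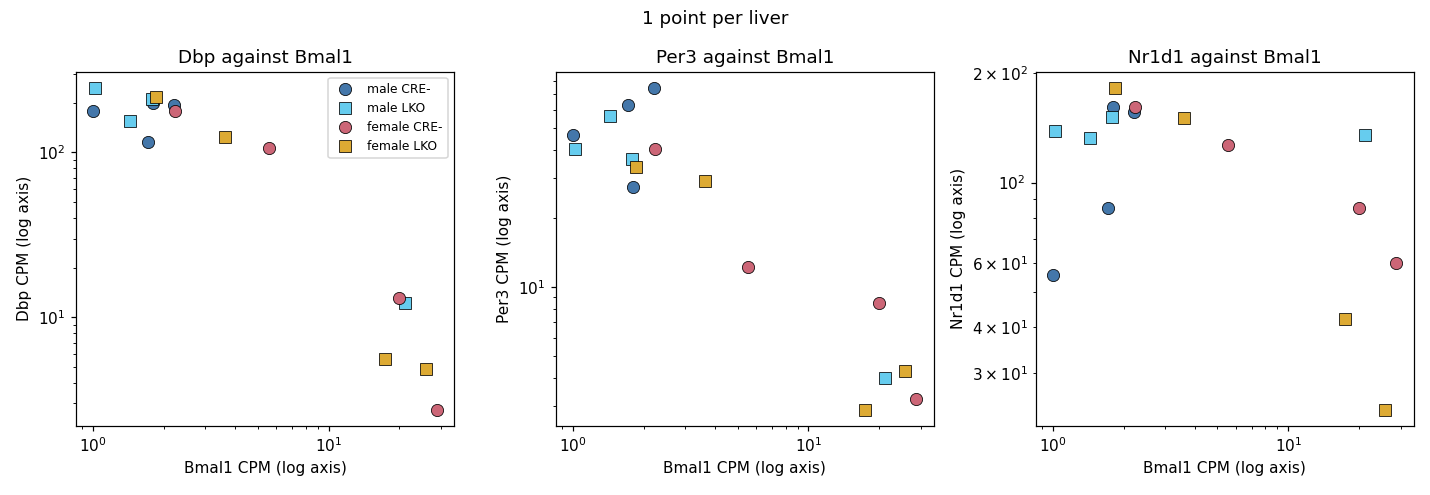
Dbp, Per3 and Nr1d1 (vertical, CPM, log axis) against Bmal1 (horizontal, CPM, log axis), with 1 point per liver coloured by group. The 5 livers at 17.4 to 28.8 CPM of Bmal1 lie below all others for Dbp and Per3, and among the others in part for Nr1d1.

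Whether the spread followed clock phase was asked by relating Bmal1 to each member, with each gene centred on its group mean. Over all 16 livers the planned permutation test had an adjusted p under 0.05 for 10 of 10 members, and for 6 without male LKO 3. The relation was negative for 8 of the 10. The share over all genes was not computed, so these counts cannot be set against it. Among males alone it was 0 of 10, among CRE- livers alone 0, among females alone 8 and among LKO livers alone 9. Permutation was within groups. The only livers with high Bmal1 were male LKO 3 among males, and female CRE- 1 and 2 among CRE- livers. Many arrangements then keep the split in place, so a low p could hardly arise there. No conclusion is drawn from the counts in these subsets. No coefficient over the 16 is given, because the livers fall into separate sets, and 5 livers are too few to test by themselves. Within the 11 livers with low Bmal1, 0 of 10 relations had an adjusted p under 0.05 by an exact permutation test, and 2 had an unadjusted p under 0.05. Of the 10 coefficients there 9 were negative, and without female CRE- 4 and female LKO 3, the 2 livers farthest from the median Bmal1 of those 11, 6 were, with Clock, Per3 and Cry2 turning positive. Leaving out those 2 keeps a single liver in each female group, which centring sets to its own mean. The coefficients without them therefore come from the male livers alone.

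Per1 gave the closest relation within the 11 livers (Pearson r −0.90, two-sided exact permutation p = 0.0208, adjusted p = 0.191). Its Spearman rho was −0.92 (exact permutation p = 0.0104, adjusted p = 0.104), and r was −0.77 without female CRE- 4 and female LKO 3, the 2 livers farthest from the median of Bmal1. For Ciart r was −0.86 (exact permutation p = 0.0382, adjusted p = 0.191), rho was −0.82 (exact permutation p = 0.0573, adjusted p = 0.191), and r without those 2 livers was −0.67. For Dbp r was −0.57 (exact permutation p = 0.214, adjusted p = 0.422), rho was −0.52 (exact permutation p = 0.271, adjusted p = 0.451), and r without them was −0.12. For Nr1d1 r was 0.31 (exact permutation p = 0.427, adjusted p = 0.534), rho was 0.04 (exact permutation p = 0.906, adjusted p = 0.906), and r without them was 0.76. Each coefficient without those 2 livers comes from the male livers alone. The smallest p these 576 arrangements allow is 0.00174. Clock phase itself could not be read from 1 time point per animal with no dissection time, and phase, amplitude and food intake cannot be told apart here.

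In males, the comparison of LKO with CRE- livers called none of the 10 members by edgeR, against 76 of 16742 genes (0.454%). At an unadjusted p under 0.05 the count was 0 members against 1595 genes (9.53%), and DESeq2 and limma-voom also called 0 members. For each comparison, the counts of these tools over all genes are given in the last section. The median log2 fold change of the members was −0.27 against −0.01 over all genes, with 3 members higher and 7 lower. For this comparison 1 member, Cry2, had groups that did not overlap, as did 1087 genes (6.49%). Gcgr did not separate these male labels, which limits the directions given here.

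In females, the same comparison called none of the 10 members by edgeR, against 710 genes (4.24%). At an unadjusted p under 0.05 it was 1 member, Per1, against 3584 genes (21.4%). DESeq2 called 1 member, Per1, among 1816 genes (10.8%), and limma-voom with sample quality weights called 1 member, Per1, among 1976 genes (11.8%). No member had groups that did not overlap, against 1944 genes (11.6%). The median log2 fold change of the members was 0.10 against 0.04 over all genes, with 6 higher and 4 lower. Without the 5 livers the female comparison kept 2 livers a group, and called 0 members and 13 genes.

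The test of the difference between the sexes in the LKO effect called 0 members and 0 genes by edgeR (0%). At an unadjusted p under 0.05 it was 1 member, Per1, and 2672 genes (16%). DESeq2 called Per1 among 371 genes (2.22%), and limma-voom called 0 members. Averaged over the sexes, edgeR called 0 members and 478 genes (2.86%). At an unadjusted p under 0.05 it was 1 member, Cry2, and 2647 genes (15.8%), and DESeq2 and limma-voom called 0 members. The median over the members was 0.02, the same as over all genes. The comparisons with LKO livers share control livers with the comparison of female with male CRE- livers below.

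**Figure D2:**
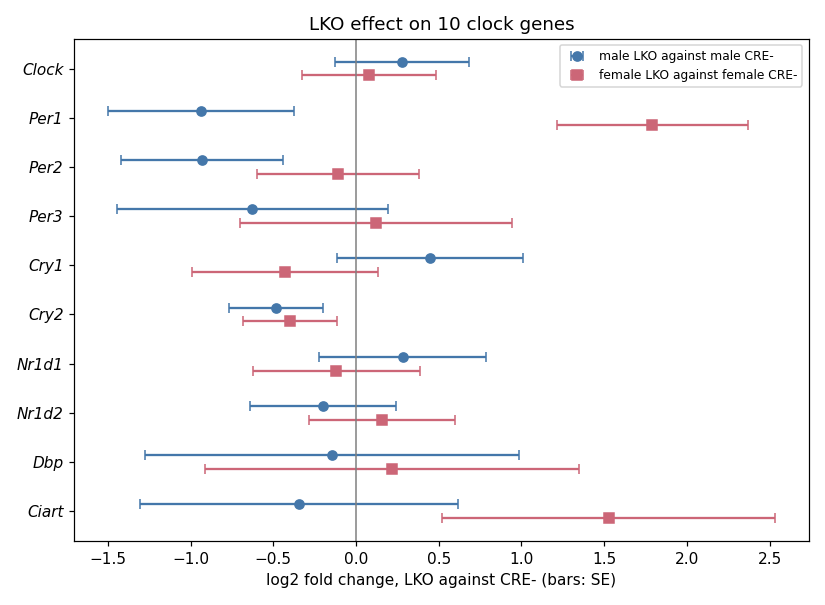
Log2 fold change of LKO against CRE- livers for the 10 members, males as circles and females as squares, with bars of 1 SE from edgeR (n = 4 livers per group). Per1 shows the widest distance between the sexes, −0.94 in males and 1.79 in females, and by edgeR no member passed the threshold in either sex, while DESeq2 and limma-voom called Per1 in females.

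The activator Clock ran from 15.9 to 66.01 CPM. Its 2 highest values were in female LKO 1 (66.01 CPM) and male LKO 3 (53.4 CPM), both livers with high Bmal1. The other 3 such livers stood at 36.0 and 47.7 CPM in female CRE- 1 and 2 and at 27.7 CPM in female LKO 4. In each sex the LKO and CRE- groups overlapped for Clock.

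Per1 (chr11:68985934-69000791, plus strand) is a repressor gene that cAMP is also known to induce. It stood at 37.2, 60.1, 51.4 and 34.0 CPM in male CRE- livers 1 to 4 and at 35.6, 35.6, 5.84 and 18.2 CPM in male LKO livers. In female CRE- livers it stood at 6.17, 3.54, 21.5 and 8.39 CPM, and in female LKO livers at 14.5, 64.0, 29.7 and 28.9 CPM. Every female LKO liver exceeded 3 of the 4 female CRE- livers, while female CRE- 3 lay above female LKO 1. In females the log2 fold change was 1.79 (SE 0.58, adjusted p = 0.0833 by edgeR), and DESeq2 gave an adjusted p of 0.0145. Leaving out 1 library gave 1.30 (without female LKO 2) to 2.51 (without female CRE- 3), with no call by edgeR. In males it was −0.94 (SE 0.56, adjusted p = 0.633 by edgeR). The difference between the sexes was 2.73 (SE 0.81, adjusted p = 0.197 by edgeR, 0.0257 by DESeq2), and 2.23 to 3.44 without those same 2 livers in turn. Without the 5 livers with high Bmal1, Per1 gave 1.64 in females (adjusted p = 0.388 by edgeR) and −0.61 in males (adjusted p = 0.625 by edgeR).

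Per2, its paralog, stood at 35.3, 47.2, 44.0 and 16.9 CPM in male CRE- livers 1 to 4 and at 17.9, 30.0, 5.29 and 21.9 CPM in male LKO livers. In female CRE- livers it stood at 11.3, 6.72, 18.3 and 11.8 CPM, and in female LKO livers at 3.37, 15.2, 13.01 and 12.96 CPM. The groups overlapped in both sexes. For Per2 in males the log2 fold change came to −0.93 (SE 0.49, adjusted p = 0.572 by edgeR). It was −0.62 without male LKO 3, and −0.62 without the 5 livers with high Bmal1.

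Cry2 (chr2:92233991-92264426, minus strand), a partner of the Per proteins, stood at 49.9, 43.2, 46.5 and 45.2 CPM in male CRE- livers 1 to 4 and at 31.6, 38.8, 24.3 and 37.5 CPM in male LKO livers. In female CRE- livers it stood at 27.0, 31.6, 45.1 and 38.1 CPM, and in female LKO livers at 14.1, 46.6, 27.9 and 18.9 CPM. Every male LKO liver lay below every male CRE- liver, and the female groups overlapped, with female LKO 2 above all 4 female CRE- livers and female LKO 3 above female CRE- 1. The average over the sexes was −0.44 (SE 0.20, adjusted p = 0.292 by edgeR). Without female LKO 2 it was −0.64 (adjusted p = 0.0394 by edgeR), and without the 5 livers with high Bmal1 it was −0.26 (adjusted p = 0.637 by edgeR).

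For Dbp the log2 fold change was −0.14 in males (SE 1.13, adjusted p = 0.980 by edgeR) and 0.22 in females (SE 1.13, adjusted p = 0.940 by edgeR). It was 0.24 in males without male LKO 3 and −0.75 in females without female LKO 2, so the sign turned on single livers. By limma-voom Dbp gave −0.54 in males (adjusted p = 0.908) and 1.92 in females (adjusted p = 0.410). Cry1 ran from 3.37 to 19.8 CPM and Nr1d2 from 22.4 to 127 CPM, each with overlapping groups in both sexes. Ciart gave 1.53 in females (SE 1.01, adjusted p = 0.415 by edgeR), from 0.52 without female LKO 2 to 2.79 without female CRE- 3, and 2.38 by limma-voom (adjusted p = 0.286).

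**Figure D3:**
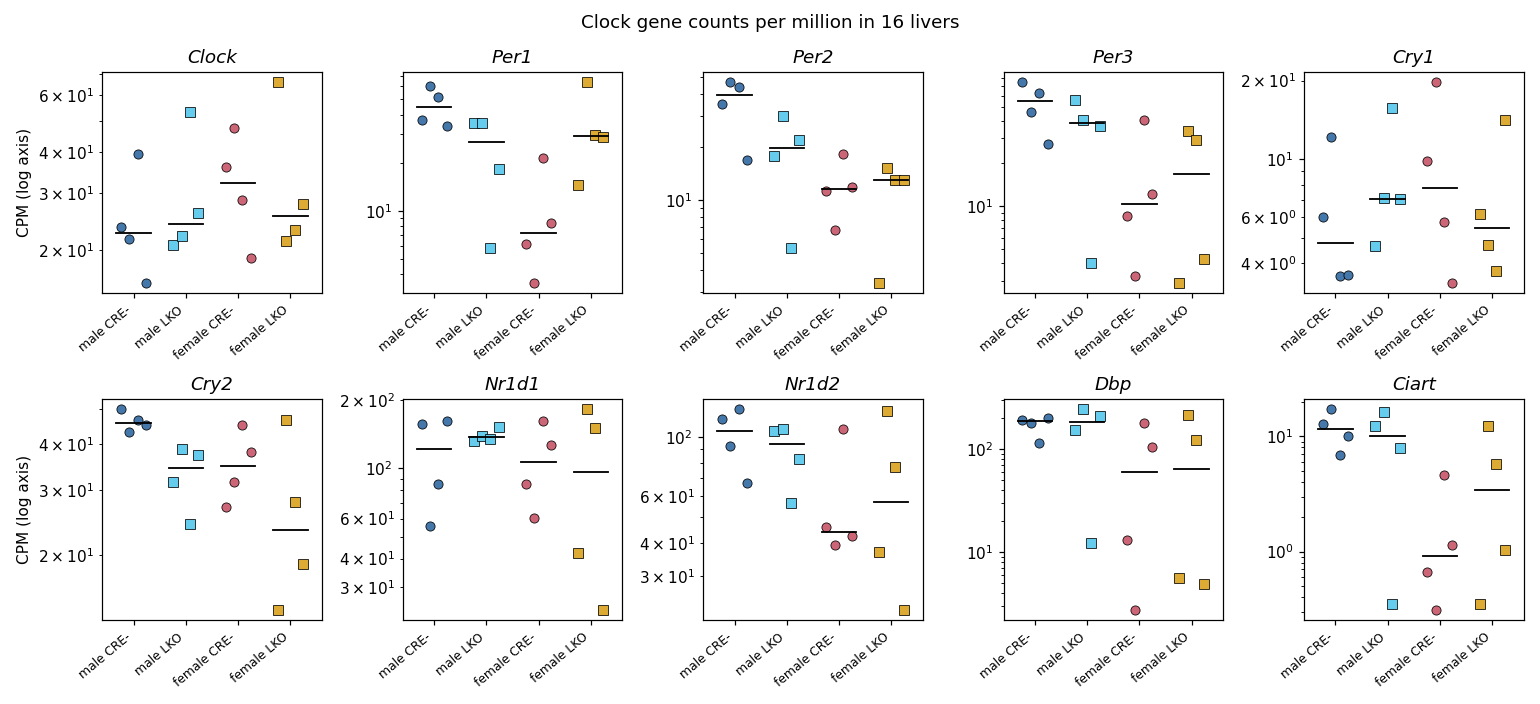
CPM of each of the 10 members (log axis) in each liver, by group, with 1 point per liver and a bar at the median of 4. Dbp, Per3 and Ciart show single livers far below the rest of male LKO, and livers at both ends within female CRE- and female LKO.

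The levels with the receptor intact were compared between female and male CRE- livers. By edgeR 0 members were called against 154 genes (0.92%). At an unadjusted p under 0.05 the count was 3 members, Per1, Per2 and Ciart, against 2121 genes (12.7%). DESeq2 called 2 members, Per1 and Per2, among 509 genes (3.04%), and limma-voom called 0 members. The groups did not overlap for 2 members, Per1 and Ciart, against 1263 genes (7.54%). The median over the members was −0.99 against −0.01 over all genes, with 8 of 10 lower in females. Per1 gave −2.21 (SE 0.58, adjusted p = 0.101 by edgeR), Per2 −1.58 (SE 0.50, adjusted p = 0.182) and Ciart −2.81 (SE 1.04, adjusted p = 0.271). Ciart stood at 12.8, 17.2, 6.92 and 10.1 CPM in male CRE- livers 1 to 4 and at 0.665, 0.311, 4.62 and 1.15 CPM in female CRE- livers. Every female CRE- liver was below every male CRE- liver, also the 2 female CRE- livers with low Bmal1.

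Without the 5 livers with high Bmal1, the sex comparison called 0 members and 50 genes, with a member median of −0.45. Per1 then gave −1.60 (adjusted p = 0.235 by edgeR) and Ciart −2.02 (adjusted p = 0.230 by edgeR). Without female CRE- 3 alone, Per1 gave −2.92 (adjusted p = 0.0389 by edgeR) and Ciart −4.06 (adjusted p = 0.158 by edgeR). With all livers limma-voom gave −3.72 for Ciart (adjusted p = 0.165).

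Levels between members were compared per kilobase of summed exon length, as the mean over the 16 livers. Dbp (45.0 CPM per kb, SD 32.3) and Nr1d1 (38.8, SD 16.5) had the highest means, and did not differ beyond their spread. The order rests on the sets, since in all 5 livers with high Bmal1 Dbp (1.004 to 4.81 CPM per kb) lay below Nr1d1 (7.96 to 45.2 CPM per kb) and Cry2 (3.42 to 7.63 CPM per kb). In the other 11 Dbp lay below Nr1d1 in 2 livers and above Cry2 in all. Cry2 (8.56, SD 2.60) and Nr1d2 (7.69, SD 3.41) came next, also within each other's spread. Per1 (3.31, SD 2.21), Per3 (3.29, SD 2.50), Per2 (3.21, SD 2.17), Ciart (3.10, SD 2.71), Clock (3.03, SD 1.39) and Cry1 (2.0, SD 1.25) overlapped in their spread.

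Spread within groups was measured as the SD of log2 CPM around the group means. It was 2.25 for Dbp, 1.87 for Ciart and 1.5 for Per3, above that of 99.7%, 99.4% and 98.8% of genes. Cry2 had the smallest of the members at 0.44, above that of 61.5% of genes, and the median gene stood at 0.37, all over the 13079 tested genes with a mean of at least 1 CPM. Csnk1d, a kinase of the Per proteins, stood at 0.11. These values describe the 16 livers and carry no test.

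Among the other clock genes reported here from a preset list, 16 of 17 were tested and Rorb was too low. By edgeR 0 of the 16 were called in any of the 5 comparisons. At an unadjusted p under 0.05 the counts were 0 in males, 0 in females, 0 for the difference, 0 for the average and 4 for female against male CRE- livers. Over all genes these shares were 9.53%, 21.4%, 16%, 15.8% and 12.7% in that order, with 0.454%, 4.24%, 0%, 2.86% and 0.92% called. The 5 livers with high Bmal1 held the highest Npas2 (4.66 to 17.8 CPM against 0.267 to 1.71) and Nfil3 (27.9 to 52.6 CPM against 5.81 to 20.5). They held the lowest Tef (37.2 to 61.6 CPM against 98.5 to 320) and Bhlhe40 (43.5 to 94.2 CPM against 138 to 216). Of the 16 genes besides Bmal1, Rorb included, 2 were thus highest there, 2 lowest and 12 neither, beside 0.323% of all genes tested that held the highest or lowest values in those livers. Among the 12 were Hlf, Rora, Bhlhe41, Csnk1d and Csnk1e. Between female and male CRE- livers Bmal1 gave 3.07 (SE 1.04, adjusted p = 0.227 by edgeR) and Npas2 3.72 (SE 1.24, adjusted p = 0.213 by edgeR). Bhlhe41, an E-box repressor, gave −2.39 (SE 0.65, adjusted p = 0.115 by edgeR). By DESeq2 the adjusted p was 0.0767 for Bmal1, 0.0499 for Npas2 and 0.00525 for Bhlhe41, and for Bhlhe41 it was 0.0442 by limma-voom and 0.0355 in an edgeR fit of the 2 groups alone. Without the 5 livers chosen by their Bmal1 the values were 1.21 for Bmal1, 1.40 for Npas2 and −2.30 for Bhlhe41 (adjusted p = 0.377, 0.405 and 0.242 by edgeR).

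Of the 18 liver clock outputs, edgeR called 0 in males and 0 in females, with 3 and 2 at an unadjusted p under 0.05, against 9.53% and 21.4% of all genes. Over all genes the shares called were 0.454% and 4.24%. The 5 livers with high Bmal1 held the highest values of 2 of the 18, the lowest of 1 and neither for 15, beside the 0.323% of all genes above. Avpr1a, the vasopressin receptor, gave 1.35 in males (adjusted p = 0.157 by edgeR, 0.0327 by DESeq2), and was 1 of the 2 highest in those livers, 29.8 to 51.6 CPM against 6.64 to 27.1. Tars1 gave −0.61 in females (adjusted p = 0.0602 by edgeR, 0.0155 by DESeq2) and −0.36 without the 5 livers (adjusted p = 0.779 by edgeR). In males Tars1 gave 0.48 (SE 0.18, adjusted p = 0.354 by edgeR), the opposite sign, and the groups did not overlap in either sex. Upp2 gave −1.94 in males (adjusted p = 0.322 by edgeR). Between female and male CRE- livers 1 rose, Avpr1a (1.67, adjusted p = 0.0454 by edgeR), and 1 fell, Elovl3 (−4.43, adjusted p = 0.0494 by edgeR), a fatty acid elongase chosen for naming after its values were seen. Over all genes 0.92% were called in that comparison. There 8 of 18 had an unadjusted p under 0.05, against 12.7% of all genes, and the groups did not overlap for 6 of 18, against 7.54%. Avpr1a and Elovl3 gave 1.14 and −4.74 (adjusted p = 0.160 and 0.198 by edgeR) without the 5 livers, so neither passed there. Among the 16 fits that left out 1 library, the Avpr1a call was lost in 12 and the Elovl3 call in 10.

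Genes that follow temperature, glucocorticoids, or cAMP and feeding were listed too, since these signals act on clock genes. In males 0 of 8, 0 of 8 and 1 of 10 were called by edgeR, with 1, 2 and 4 at an unadjusted p under 0.05. Over all genes the male shares were 0.454% and 9.53%. In females 1, 0 and 2 were called, with 2, 2 and 4 at an unadjusted p under 0.05. Over all genes the female shares were 4.24% and 21.4%. Pde4b, a cAMP phosphodiesterase, stood at 21.5, 20.4, 23.8 and 18.6 CPM in male CRE- livers 1 to 4 and at 5.17, 5.25, 5.32 and 4.75 CPM in male LKO livers. The groups lay far apart with little spread, and Pde4b fell by 2.04 on the log2 scale in males (SE 0.28, adjusted p = 0.00290 by edgeR). It gave −0.37 in females (SE 0.26, adjusted p = 0.463 by edgeR), from −0.69 without female LKO 4 to −0.16 without female LKO 3 or female CRE- 1, and limma-voom called it there (−0.79, adjusted p = 0.0344). Without the 5 livers with high Bmal1 it gave −0.75 in females (adjusted p = 0.491 by edgeR). The difference between the sexes was 1.67 (adjusted p = 0.135 by edgeR), and male LKO 3 did not stand apart for Pde4b.

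In females Sik1, a kinase gene induced by cAMP, stood at 18.5, 19.04, 15.3 and 16.3 CPM in CRE- livers 1 to 4 and at 48.7, 58.6, 25.2 and 191 CPM in LKO livers. It rose by 2.22 (SE 0.46, adjusted p = 0.0194 by edgeR) and all 4 LKO livers lay above the CRE- livers. In males Sik1 gave −0.60 (SE 0.44, adjusted p = 0.699 by edgeR), and the difference between the sexes was 2.83 (SE 0.63, adjusted p = 0.135 by edgeR). Without female LKO 4 Sik1 gave 1.35 (adjusted p = 0.0339 by edgeR), and with all livers limma-voom gave 1.38 (adjusted p = 0.0232). Srebf1, a regulator of fat synthesis, stood at 487, 366, 643 and 561 CPM in female CRE- livers 1 to 4 and at 140, 252, 186 and 206 CPM in female LKO livers. It fell by 1.39 (SE 0.35, adjusted p = 0.0369 by edgeR), with no overlap. In males Srebf1 gave −1.21 (SE 0.35, adjusted p = 0.174 by edgeR), the difference between the sexes was −0.18 (adjusted p = 0.878 by edgeR), and averaged over the sexes it fell by 1.30 (SE 0.25, adjusted p = 0.00811 by edgeR). Rbm3, a cold-induced RNA-binding protein, rose by 1.30 (SE 0.31, adjusted p = 0.0305 by edgeR), from 39.3, 27.3, 36.6 and 34.7 CPM in female CRE- livers to 95.8, 58.2, 70.4 and 114 CPM in female LKO livers. The Rbm3 groups did not overlap, and the 2 female LKO livers with high Bmal1 held the higher values. In males Rbm3 gave 0.10 (SE 0.30, adjusted p = 0.938 by edgeR), with a difference between the sexes of 1.19 (SE 0.43, adjusted p = 0.228 by edgeR). These 3 calls in females were lost without the 5 livers with high Bmal1 (1.40 with adjusted p = 0.404 for Sik1, −1.46 with 0.442 for Srebf1 and 0.85 with 0.636 for Rbm3, by edgeR), which left 2 livers a group. The Srebf1 value was thus about as large without them. Each was also lost in some fits that left out 1 library, 3 of 16 for Sik1, 9 for Srebf1 and 6 for Rbm3.

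Markers of other cells moved in female LKO livers, beside the Per1 values above. Over all genes edgeR called 4.24% in females, with 21.4% at an unadjusted p under 0.05. Of 4 neutrophil markers 2 rose (Retnlg and Mmp8) and 4 of 4 had an unadjusted p under 0.05. Their summed level was 25.6, 13.9, 11.7 and 14.2 CPM in female CRE- livers 1 to 4 and 77.1, 29.9, 48.2 and 487 CPM in female LKO livers, with S100a9 the most abundant. In males 0 of the 4 neutrophil markers were called by edgeR, against 0.454% of all genes. All 4 had an unadjusted p under 0.05 there, against 9.53% of all genes, and their median log2 fold change was −2.23. Their sum was 54.5, 13.4, 8.09 and 117 CPM in male CRE- livers 1 to 4 and 17.2, 10.1, 7.70 and 7.13 CPM in male LKO livers, so only male CRE- 1 and 4 lay above all male LKO livers. Of 5 macrophage markers 1 rose (Adgre1) and 5 of 5 had an unadjusted p under 0.05. Their sum was 389, 308, 317 and 520 CPM in female CRE- livers and 1935, 411, 982 and 508 CPM in female LKO livers, with Clec4f the most abundant. No marker of either list was at 0 in any liver. Of 5 hepatocyte markers 0 were called by edgeR, 2 had an unadjusted p under 0.05, and their sum was 108006, 105170, 110179 and 125458 CPM in female CRE- and 47857, 86184, 83270 and 64411 CPM in female LKO livers. Alb was the most abundant of them in every liver. Of 4 endothelial markers 1 rose, Cdh5, while none of the T and NK, B and plasma, stellate or cholangiocyte markers were called in females by edgeR, with 0 at an unadjusted p under 0.05. In a bulk sample fewer cells of a type and less RNA per cell cannot be told apart. Between female and male CRE- livers 1 of the 4 cholangiocyte markers rose, Krt19 (1.66, SE 0.35, adjusted p = 0.0300 by edgeR), with no overlap. The cholangiocyte sum was 8.40, 6.64, 11.4 and 13.8 CPM in male CRE- livers 1 to 4 and 18.9, 10.2, 7.997 and 12.3 CPM in female CRE- livers, with Sox9 the most abundant and none at 0. Of the neutrophil markers 0 were called there by edgeR and 1, Mmp8, had an unadjusted p under 0.05 (−2.20, SE 0.76, adjusted p = 0.234 by edgeR). The other 6 lists had 0 called and 0 at an unadjusted p under 0.05 in that comparison, against 0.92% and 12.7% of all genes. The part of these markers in the clock gene values was not tested.

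Genes most like each member were found by Pearson r of log2 CPM over the 16 livers, as a description with no p, in which the points share the split in Bmal1. For Per1 they were Lpin1 (r 0.91), Usp2 (0.91) and Slc19a1 (0.90), and for Clock Fbxl18 (0.95), Tecpr2 (0.93) and A930013F10Rik (0.91). For Cry2 they were Klhl21 (0.93), Gys2 (0.92) and Fn3k (0.91). For Dbp, Per3 and Ciart no coefficient is given because of the separate sets, and Bhlhe40 and Stbd1 were among the 3 most alike for each of them. The genes most opposite to Dbp were Lgalsl, Bmal1 and Npas2.

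The members were also examined for shared promoter motifs, in a RefSeq promoter table (GRCm38.p6) of 250 bases before to 50 bases after each start, on both strands. The table held 9 of the 10 members, all but Per2, with 12 promoters, and a gene counts where any of its promoters holds the motif. The E-box CACGTG occurred in 3 of the 9 (Ciart, Cry1 and Per1) against 8.09% of 27025 genes in the table and 7.15% of 32851 promoters. For Per1 it was in 1 of 2 promoters. The D-box TTATGTAA occurred in 1 (Per3) against 1.11% of genes and 0.938% of promoters. The element TAGGTCA, which Nr1d1 binds, occurred in none of the 9 against 2.97% of genes and 2.61% of promoters, and in Bmal1 and Nfil3 among 13 other clock genes in the table. The cAMP element TGACGTCA occurred in none of the 9 against 2.03% of genes and 1.79% of promoters. Its part TGACG was in Per1, Cry1 and Cry2 against 23.0% of genes and 20.8% of promoters. These matches are descriptions and show no binding.

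Ciart and Per3, 2 of the 3 members that followed the split in full, hold repeated motifs and are shown, each 5′ to 3′ on the minus strand of GRCm39, with the position found by exact match to the genome. The Ciart stretch, chr3:95789518-95789644, lies within the gene span and outside the exons of the counted gene model, and capitals mark 2 E-boxes. Another E-box of the same window, chr3:95789651-95789656, lies in an exon and is not shown. The Per3 stretch, chr4:151129168-151129372, lies before the start of the counted gene model, and capitals mark 2 D-boxes.
Ciart: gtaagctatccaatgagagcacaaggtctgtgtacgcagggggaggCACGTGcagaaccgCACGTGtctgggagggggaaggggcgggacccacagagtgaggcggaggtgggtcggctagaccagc
Per3: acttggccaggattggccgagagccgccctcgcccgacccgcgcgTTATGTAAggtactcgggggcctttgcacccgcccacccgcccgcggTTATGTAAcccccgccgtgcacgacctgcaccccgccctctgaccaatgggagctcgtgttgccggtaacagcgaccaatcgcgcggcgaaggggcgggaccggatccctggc
Per1 holds its E-box at chr11:68989609-68989614, within an exon of the counted gene model on the plus strand. Dbp, the third member that followed the split, held none of the motifs in the table's window.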

How the data were processed

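RNA-seq was made from 16 livers, 4 per group of sex and genotype, with poly-A selection and paired reads on a NovaSeq X. The authors aligned reads with STAR 2.7.1a to GRCm39 and deposited raw counts per gene from featureCounts (Subread 2.0.6), by strand, in which mates were counted separately, so counts exceed the number of fragments. From these counts edgeR 4.0.16 in R 4.3.3 kept genes by filterByExpr (minimum count 10), scaled by TMM, fitted the 4 groups together and applied the quasi-likelihood test with Benjamini-Hochberg adjustment over 16742 genes, called at an adjusted p under 0.05. CPM are counts scaled to TMM library size, and log2 CPM used a prior count of 2. Correlations were centred on group means and tested by permutation within groups. DESeq2 1.42.0, limma 3.58.1 (voom), other filters, scalings, a replicate block and leaving out each library were alternatives. The tests were run on simulated data first. Members and gene lists were chosen with earlier results of these data known, and the lists, tests and alternatives were fixed before the data were examined here. Named genes are the members, Gcgr, preset clock genes, up to 4 per list with the smallest p in males or females, and 3 most alike per member. Also named are the genes most opposite to Dbp, some cell markers, and Elovl3, which was chosen after its values were seen. Of the preset clock genes 1 is not reported here. Leaving out the 5 livers with high Bmal1 was added after seeing the data. Replicates were separate animals.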

Additional observations from a re-analysis of the deposited data

Results flagged for a closer look

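Single livers far from the other 3 of their group, in log2 CPM, were found in 7 of 84 groups of 4 examined over 21 genes. Chance alone gives such a liver in about 1 in 20 independent groups. The same livers recur over the 21 genes, so that rate does not apply to this count. Male LKO 3 was the lowest of its group for Per3 (2.01), Dbp (3.61) and Tef (5.54) and the highest for Npas2 (3.16). It is 1 of the 5 livers with high Bmal1. Female LKO 1 was the lowest of its group for Per2 (1.77), and is also among those 5 livers. Female CRE- 3 was the highest of its group for Nr1d2 (6.74) and is one of the 2 female CRE- livers with low Bmal1. The library labelled male CRE- 3 was the lowest of its group for Gcgr (6.99), at the level of the male LKO livers.

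The LKO effect on Per1 had opposite signs in the sexes, with a difference of 2.73 in log2 fold change, female minus male. The edgeR test of that difference gave an adjusted p of 0.197 and DESeq2's 0.0257, so the call depends on the tool. The cause of these values was not tested.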

How the results depend on the processing

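The number of clock genes called was 0 in males under all alternatives, and in females and for the difference between the sexes under all but those named here. DESeq2 called 1 clock gene in females, 1 for the difference and 2 for female against male CRE- livers, limma-voom called 1 in females, and a fit of only the 2 groups compared called 2 (Per1 and Per2) for female against male CRE- livers. Leaving out 1 library gave 0 to 1 for the average over the sexes (1, Cry2, without female LKO 2) and 0 to 1 for female against male CRE- livers (1, Per1, without female CRE- 3).

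Counts over all genes moved more. By DESeq2 they were 339 in males, 1816 in females, 371 for the difference, 1034 for the average and 509 for female against male CRE- livers. By limma-voom they were 148, 1976, 29, 857 and 329. A fit of only the 2 groups gave 119 in females and 249 for female against male CRE- livers. No filter gave 12 for the difference, a filter of 10 counts in every library gave 78 for female against male CRE- livers, and an absolute log2 change of 1 or more gave 279 for the average. Leaving out 1 library gave 26 to 111 in males, 87 to 1310 in females, 0 to 14 for the difference, 299 to 598 for the average and 68 to 213 for female against male CRE- livers. The male count was 28, 32, 26 and 49 without male CRE- 1 to 4, 43, 41, 39 and 40 without male LKO 1 to 4, and 50 without female CRE- 2. The female count was 385, 87, 122 and 110 without female CRE- 1 to 4, 237, 1310 and 404 without female LKO 1, 2 and 4, and 428 and 427 without male LKO 2 and 4. The count for the difference was 14 without male LKO 1 or female LKO 3, 10 without female LKO 2, and 2 without male CRE- 2 or female LKO 4. The average count was 316 without male CRE- 2 and 299 without female CRE- 2. The count for female against male CRE- livers was 68 and 74 without male CRE- 1 and 3, and 82, 71, 90 and 71 without female CRE- 1 to 4.

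Without the 5 livers with high Bmal1, an alternative added after seeing the data, the counts were 13 in females, 2 for the difference, 137 for the average and 50 for female against male CRE- livers. Fewer livers were then compared. The clock genes related to Bmal1 numbered 0 of 10 without those livers, 1 without those livers and without centring, 0 in males only and 0 in CRE- livers only. Leaving out 1 library gave 6 to 10, with 6 without male LKO 3. Among males, and among CRE- livers, those with high Bmal1 lie in a single group. A low p could hardly arise in these subsets by permutation within groups, so their counts decide nothing.

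Dbp had no call and changed sign. In males it was 0.24 without the 5 livers, −0.54 by limma-voom and −0.47 to 0.24 when 1 library was left out. In females it was 1.92 by limma-voom, the range with 1 library left out was −0.75 to 1.10, and it was negative without female CRE- 1, female CRE- 2 or female LKO 2. The cause was not tested.

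Livers with the same number were checked as possible blocks. Their deviations from group means correlated at −0.320 to 0.474, above 0.1 in 13 of 24 pairs, and 11 of 16 libraries correlated best with their own number. The main tests and the permutations took no account of this number, and the labels do not say what it stands for. A replicate block gave 1244 genes in females and a Dbp log2 fold change of −0.051 there, and 0 clock genes called in each of the 5 comparisons.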
